A study of Homo sapiens with 24 samples.

Results

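The major replication-dependent histone gene cluster lies on the short arm of chromosome 6. It was described here as the 34 counted regions, of 153244 in all, that overlap 2 windows of the hg19 genome build, 26.015 to 26.29 Mb (24 regions) and 27.77 to 27.87 Mb (10 regions). Regions entered by position alone, although the windows themselves were proposed with earlier results of these data known. CUT&Tag, in which a tethered transposase tags the DNA next to a histone mark, was done for H3K4me3, H3K27ac, H3K4me1 and H3K9me3 in ventricular-like cardiomyocytes at day 15 of differentiation from H9, an established human embryonic stem cell line. Control cells and ZNF436 knockdown cells had 3 libraries each per mark, 24 in all, and both groups shared the line and the differentiation. ZNF436 encodes a zinc finger protein, and the sources used here do not give the method of knockdown. Both groups came from 1 line, and no label ties the libraries to separate cultures. The p-values below therefore weigh differences against a spread between libraries that could be purely technical. In bulk libraries, fewer cells of a type and less signal per cell cannot be told apart. The counts have no gene names and no hg19 annotation was used here, so regions are named by position, and the labelled cell type was not checked against marker genes.

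Replication-dependent histone genes encode the core histones H2A, H2B, H3 and H4 and the linker histone H1, which package newly copied DNA. They are transcribed during S phase in a nuclear compartment, the histone locus body, where the activator NPAT gathers. Their transcripts have no introns and end in a stem-loop in place of a poly(A) tail. H3K4me3 marks active and poised promoters, H3K27ac marks active promoters and enhancers, H3K4me1 is typical of enhancers and promoter flanks, and H3K9me3 marks heterochromatin.

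RefSeq (GRCh38.p14) lists 55 genes of this family on chromosome 6, with 6 for H1, 12 for H2A, 15 for H2B, 10 for H3 and 12 for H4. Promoter sequence was at hand for 50 of them, as 54 entries that run from 250 bases before to 50 bases after a start. The bases before the start of 1 gene per promoter type are shown because they hold the short elements that set this family apart from most promoters. Capitals mark, on either strand, TATAAA (the TATA box), CCAAT (the box bound by NF-Y) and ATTTGCAT (the octamer bound by POU2F1). The sequences are on GRCh38.p14, so their positions cannot be set beside the hg19 positions of the counted regions.
H1-1, chr6:26017788-26018037, minus strand: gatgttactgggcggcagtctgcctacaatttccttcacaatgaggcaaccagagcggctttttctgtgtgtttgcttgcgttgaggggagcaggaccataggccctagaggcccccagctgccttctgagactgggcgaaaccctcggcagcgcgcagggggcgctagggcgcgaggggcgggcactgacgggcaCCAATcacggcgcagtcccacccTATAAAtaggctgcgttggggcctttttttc
H3C1, chr6:26020201-26020450, plus strand: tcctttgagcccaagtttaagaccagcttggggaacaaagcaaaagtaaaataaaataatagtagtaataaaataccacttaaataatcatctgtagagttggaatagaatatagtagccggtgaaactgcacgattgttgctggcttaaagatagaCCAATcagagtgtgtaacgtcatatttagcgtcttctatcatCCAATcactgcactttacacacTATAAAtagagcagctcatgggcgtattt
H4C2, chr6:26027284-26027533, minus strand: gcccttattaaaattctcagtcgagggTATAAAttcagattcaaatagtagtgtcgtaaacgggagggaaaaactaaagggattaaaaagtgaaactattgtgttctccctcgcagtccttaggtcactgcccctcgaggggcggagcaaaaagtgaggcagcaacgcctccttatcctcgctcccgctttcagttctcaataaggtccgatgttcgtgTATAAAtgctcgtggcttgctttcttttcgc
H2AC6, chr6:26123922-26124171, plus strand, shared with the divergent H2BC4: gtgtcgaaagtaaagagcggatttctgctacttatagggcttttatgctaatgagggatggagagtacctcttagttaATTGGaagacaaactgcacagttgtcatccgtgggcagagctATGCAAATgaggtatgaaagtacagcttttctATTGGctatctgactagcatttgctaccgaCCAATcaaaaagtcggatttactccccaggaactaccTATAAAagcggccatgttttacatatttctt

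Among the 54 histone entries, CCAAT occurred in 87%, against 34.6% of all 35116 promoter entries of the same length. TATAAA occurred in 66.7%, against 11.5% of all, and ATTTGCAT in 42.6%, against 1.77%. The classes differed in these letters. CCAAT was present in every H1, H2A, H2B and H3 entry but in 3 of 10 for H4. The octamer was present in 9 of 11 H2A entries and 13 of 17 H2B entries, in 1 of 10 for H3, and in none of the 6 H1 and 10 H4 entries. H2A and H2B genes form 9 divergent pairs whose windows share 253 to 293 bases, 255 for H2AC6 and H2BC4, so many of their matches are the same letters read from both sides. In RefSeq order, HFE is the 1 protein-coding gene of another family among the histone genes from H1-1 to H4C8. A match is a run of letters and not a measured binding site.

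The histone windows were dense in H3K4me3. Counts per 1000000 counts of a library (CPM) were scaled between libraries by TMM and divided by region length, and a region was said to carry a mark when its mean density over the 6 libraries was in the top 20% of all regions. H3K4me3 was carried by 32 of the 34 regions, and 26 of them were in the top 10%. The median H3K4me3 density was 17.6 CPM per kb, against 0.169 over all regions. H3K27ac was carried by 14 regions, with a median of 7.81 CPM per kb against 3.88. H3K4me1 and H3K9me3 were each carried by 2 regions, with medians of 2.49 against 4.95 and 0.652 against 1.41 CPM per kb.

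In combination, 16 regions carried H3K4me3 alone, which is 47.1% of the cluster and 9.45% of all regions. A further 13 carried H3K4me3 with H3K27ac, 38.2% against 5.8%. Alone means that no other mark was in its top 20%, not that the others were absent. Among the 16 regions, the H3K27ac percentile ran from 33.1 (chr6:26234082-26235562) to 78.3 (chr6:26155431-26160467) of all regions. The remaining 5 regions each had a pattern of their own, which were H3K4me3 with H3K4me1, all 3 of H3K4me3, H3K4me1 and H3K27ac, H3K9me3 with H3K4me3, H3K9me3 alone, and none of the marks.

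Set beside the 30649 regions of the genome that carried H3K4me3, the 32 of the histone windows were wider and stronger in H3K4me3 and lower in H3K4me1. Their median width was 2703 bp against 1619 bp. Their median H3K4me3 density was 17.8 CPM per kb against 5.11, and 26 of the 32 were above the genome-wide median. H3K27ac was 8.15 against 7.43 CPM per kb, with 18 of 32 above. H3K4me1 was 2.49 against 5.23 CPM per kb, with 5 of 32 above. The median ratio of H3K4me1 to H3K4me3 density was 0.129 against 1.02. The genome-wide set is mixed, with H3K4me3 quartiles of 0.953 and 20.7 CPM per kb and ratio quartiles of 0.149 and 7.90. Regions of like H3K4me3 density were not compared, so low H3K4me1 is not shown to be particular to the histone windows. These medians are a description without a test, since neighbouring regions are not replicates.

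**Figure D1:**
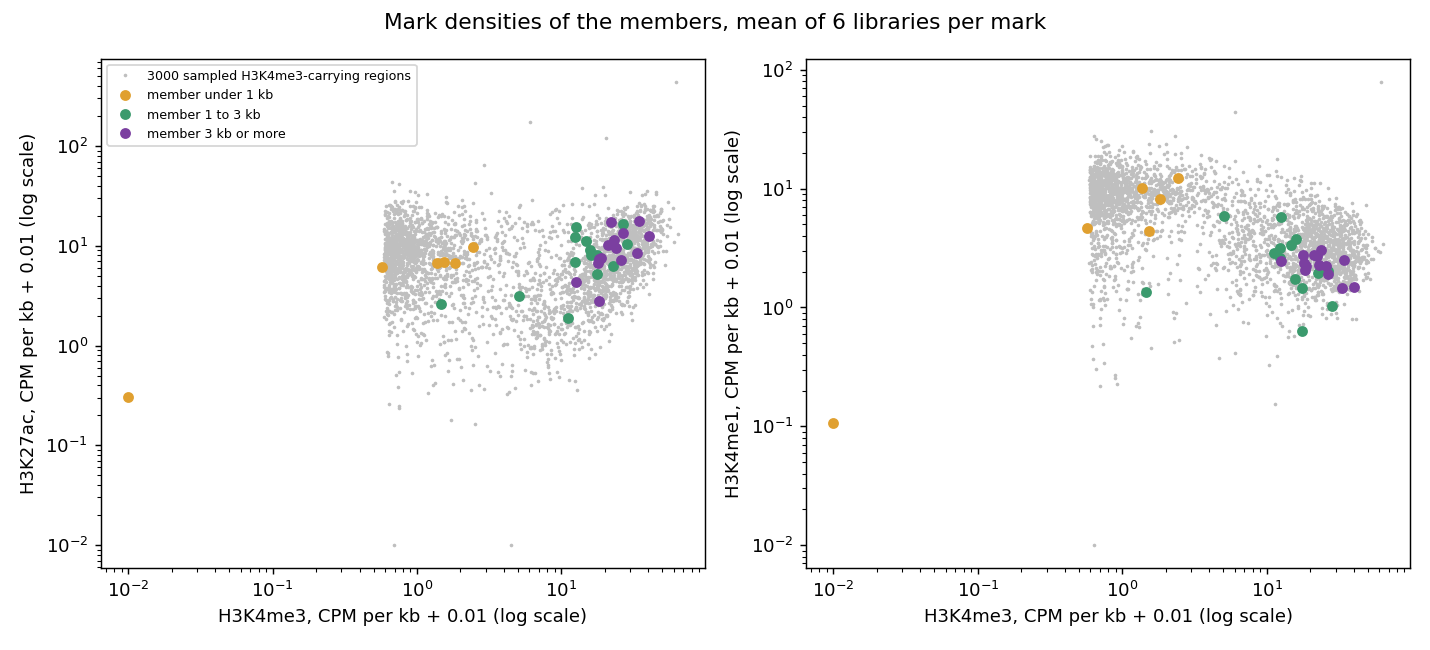
Mean density of H3K27ac (left) and H3K4me1 (right) against that of H3K4me3, in CPM per kb plus 0.01 on log axes, each the mean of 6 libraries. Grey points are 3000 sampled regions that carry H3K4me3, and coloured points are the 34 histone cluster regions by width, most of which sit at the right with high H3K4me3 and low H3K4me1.

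Width and H3K4me3 went together within the cluster. The regions were 370 to 6457 bp wide, with a median of 2493 bp, against 708 bp over all regions. The 14 regions of 3 kb or more held 75.6% of the cluster's H3K4me3 counts, at a median of 22.6 CPM per kb. The 14 regions of 1 to 3 kb had a median of 15.3 and the 6 under 1 kb one of 1.45 CPM per kb. H3K4me1 was 6.42 CPM per kb in the regions under 1 kb and 2.31 in both wider classes. Over the 34 regions, Spearman's rho between width and H3K4me3 density was 0.79 (0.38 over all regions). Between H3K4me3 and H3K4me1 density it was -0.46 (0.46 over all regions). All regions include many with little H3K4me3 (median 0.169 CPM per kb), and rho among H3K4me3-carrying regions alone was not computed. Densities of different marks come from different libraries but share the region length as divisor.

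Density ran along the cluster in separate peaks, with gaps of 150 to 28531 bp between neighbouring regions. The highest H3K4me3 density was at chr6:26122641-26126899, with a mean of 40.3 CPM per kb and a range of 38.2 to 42.1 over the 6 libraries, which did not overlap the range of the next region. That next region was chr6:27803831-27808154 in the second window, at 34.2 CPM per kb (32.1 to 36.5). It was followed by chr6:26155431-26160467 at 33.1 (30.6 to 35.2), chr6:26284223-26286904 at 28.5 (27.3 to 31.0) and chr6:26054181-26057524 at 26.7 (24.6 to 27.8). Down the whole order, 30 of 33 neighbouring ranks had overlapping ranges for H3K4me3, and 32 of 33 did for H3K27ac. The highest H3K27ac densities were 17.9 CPM per kb at chr6:27803831-27808154, 17.2 at chr6:26223093-26226571 and 16.6 at chr6:26020378-26023101. The region with the most H3K4me3 was thus not the one with the most H3K27ac, although the 2 densities had a rho of 0.60 over the 34 regions (0.57 over all regions).

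**Figure D2:**
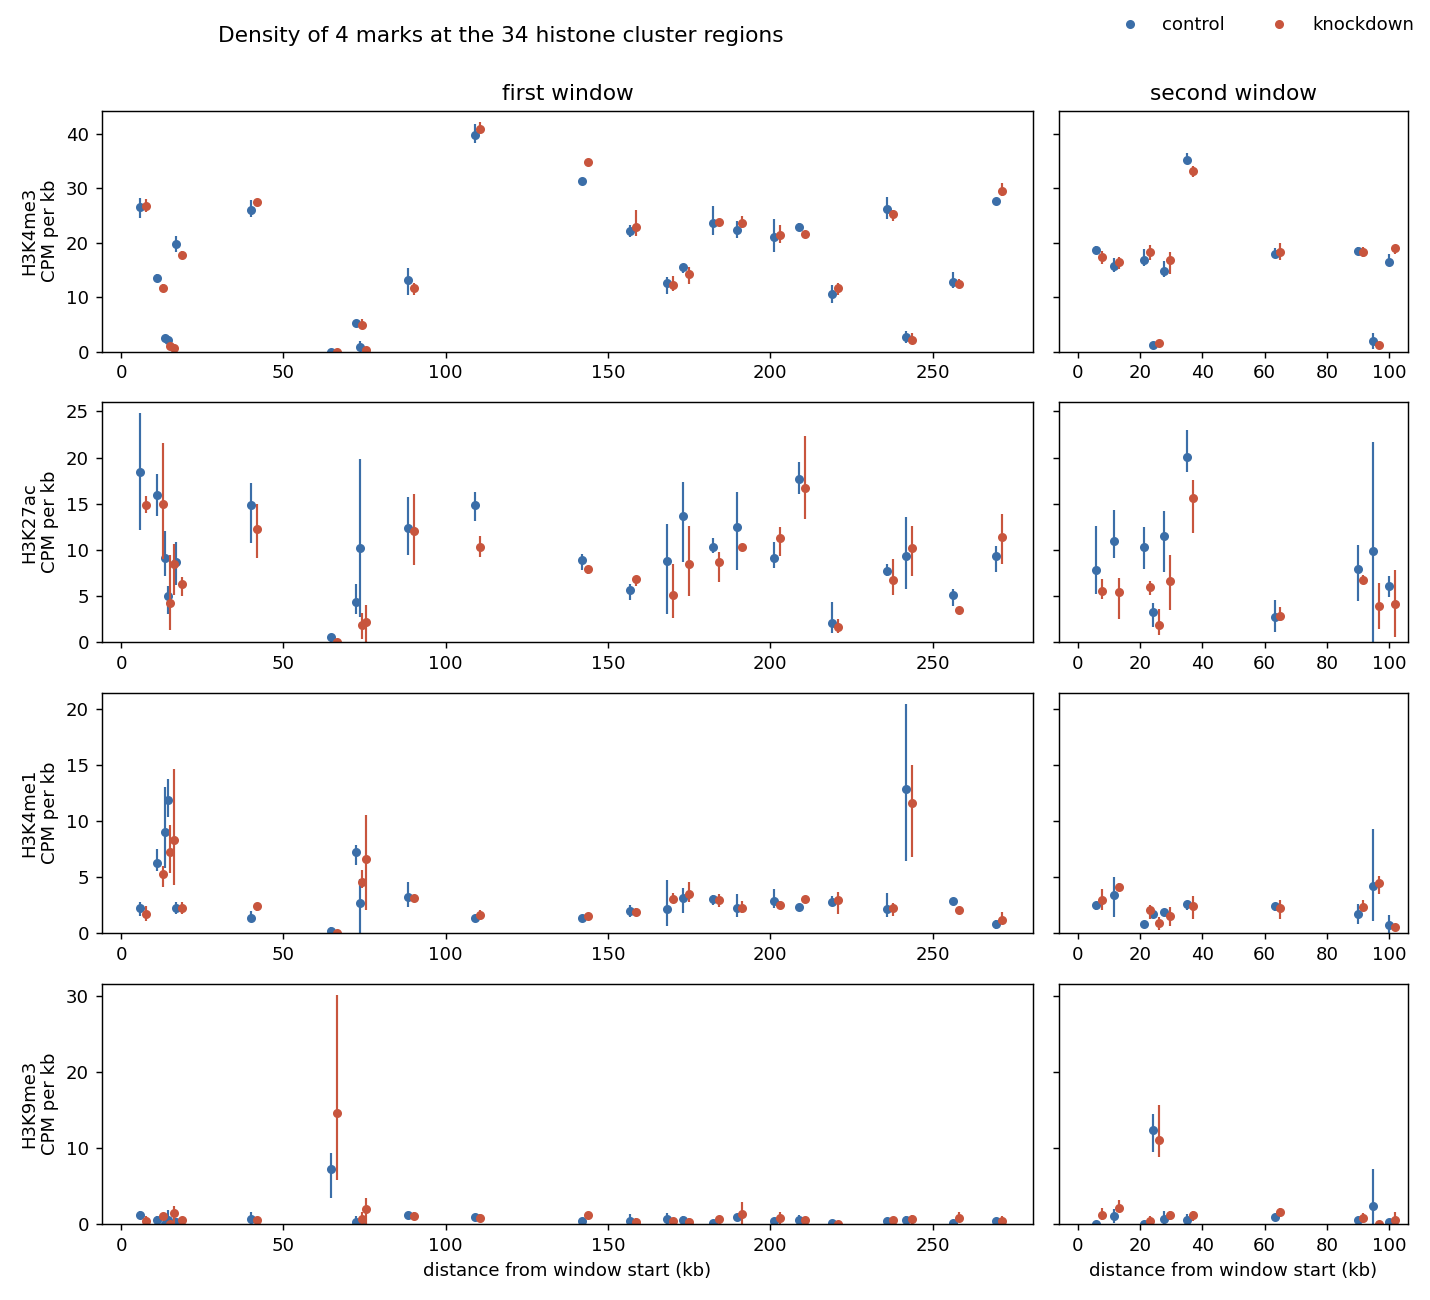
Density of H3K4me3, H3K27ac, H3K4me1 and H3K9me3 in CPM per kb at the 34 regions against their distance in kb from the start of the first window (left) and the second window (right). Points are means of 3 control (blue) or 3 knockdown (red) libraries, drawn side by side, and lines span the lowest to highest library. H3K4me3 reaches 40.3 CPM per kb and its 2 groups lie close together, while H3K27ac lines are longer.

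ZNF436 knockdown was then compared with control. Total counts per library were 11023905 to 13933927 for H3K4me3, 2955710 to 3681687 for H3K27ac, 3920283 to 4936265 for H3K4me1 and 2103185 to 2880412 for H3K9me3. The histone windows received 20300 to 26173, 1954 to 2933, 758 to 1133 and 128 to 227 of these, so H3K4me3 is by far the most precise of the 4 measurements. Over all regions, 51.9% to 65.9% of the counts above 0 in a library were even numbers. At the histone regions the share was 33.3% to 57.6% for H3K4me3 and 72.7% to 91.3% for H3K9me3, so H3K9me3 counts in particular may not be independent, and intervals from them may be too narrow.

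H3K4me3 over the histone windows was at nearly the same level in both groups. Its summed level was 1897, 1909 and 1916 CPM in the control libraries and 1895, 1939 and 1921 CPM in the knockdown libraries. The means were 1907 ± 9.67 and 1918 ± 22.5 CPM (SD, n = 3 each), a ratio of 1.006, and the groups overlapped. Of the 30 regions with enough counts to test, none reached an adjusted p under 0.05 with edgeR (quasi-likelihood fit), where 0.56% of all 26773 tested regions did. DESeq2 called none of the 29 it gave an adjusted p (1.74% of all tested regions), and limma-voom none of the 30 (0.418%). Before adjustment, 1 of 30 had p under 0.05 (10.2% of all tested regions). The 16 higher and 14 lower log2 fold changes had a median of 0.01, against -0.01 over all tested regions, of which 51.6% were lower. The absolute log2 fold change was under 0.25 in 27 of the 30. The median standard error was 0.10, against 0.23 (log2) over all tested regions.

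The strongest H3K4me3 region, chr6:26122641-26126899, had 163, 166 and 178 CPM in control and 171, 179 and 172 CPM in knockdown libraries. These overlap, with a log2 fold change of 0.04 (SE 0.06, edgeR adjusted p = 0.886). At chr6:26155431-26160467, the control libraries had 154, 160 and 160 CPM and the knockdown libraries 176, 177 and 174 CPM. The groups did not overlap there, but the fitted difference was small (log2 fold change 0.15, SE 0.06) and did not pass the adjusted test in edgeR (adjusted p = 0.352). At chr6:27803831-27808154 the values were 149, 151 and 158 CPM in control and 147, 139 and 145 CPM in knockdown, again without overlap (log2 fold change -0.09, edgeR adjusted p = 0.706).

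At chr6:26284223-26286904 the control libraries had 74.0, 73.2 and 74.9 CPM and the knockdown libraries 76.7, 83.2 and 77.1 CPM (log2 fold change 0.09, edgeR adjusted p = 0.744). At chr6:26054181-26057524 they had 85.2, 82.4 and 93.0 against 91.7, 92.8 and 91.6 CPM, which overlap (log2 fold change 0.08, edgeR adjusted p = 0.769). Groups did not overlap in 7 of the 30 tested regions, 3 of them higher and 4 lower in the knockdown libraries, against 16.2% of all tested regions. Of the 5 densest regions, chr6:26155431-26160467 and chr6:26284223-26286904 were on the higher side and chr6:27803831-27808154 on the lower side.

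Among the regions with higher values, chr6:27869986-27871618 at the edge of the second window had 29.1, 25.6 and 25.6 CPM in control and 31.5, 29.2 and 32.1 CPM in knockdown libraries (log2 fold change 0.21, SE 0.13, edgeR adjusted p = 0.648). chr6:27797486-27799786 had 32.7, 31.6 and 38.4 against 42.1, 40.8 and 32.9 CPM, with overlap (log2 fold change 0.17, edgeR adjusted p = 0.718). On the lower side, 3 regions lay within 10 kb of each other near the start of the first window. chr6:26025488-26028434 had 42.1, 38.0 and 38.8 CPM in control and 34.2, 36.5 and 33.3 CPM in knockdown (log2 fold change -0.19, SE 0.11, edgeR adjusted p = 0.609). chr6:26031076-26034732 had 71.5, 77.8 and 66.8 against 67.8, 63.1 and 64.6 CPM, with overlap (log2 fold change -0.15, edgeR adjusted p = 0.607). Between them, the short and weak chr6:26029001-26029578 had 1.09, 1.68 and 1.63 against 0.187, 0.876 and 0.826 CPM, from 55 and 23 counts (log2 fold change -1.19, SE 0.66, edgeR adjusted p = 0.575). It passed the filter on low counts through the control libraries, with 1 knockdown library at the minimum, so a lower knockdown value was partly built in. None of the 3 passed the test.

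H3K27ac had lower values in the knockdown libraries over most of the cluster, without a region that passed the test. Its summed level was 1011, 974 and 822 CPM in control and 840, 740 and 716 CPM in knockdown libraries. The means were 936 ± 99.9 and 765 ± 65.7 CPM (SD, n = 3 each), a ratio of 0.818, but control replicate 3 lay below knockdown replicate 1, so the groups overlapped. The log2 fold change was below 0 in 24 of 29 tested regions, where it was below 0 in 52.8% of all 61484 tested regions. Its median was -0.31 in the cluster and -0.05 over all tested regions. In the 25 regions where all 6 libraries reached the filter's minimum, 20 were below 0. The other 4 tested regions were all below 0. In 3 of those 4, all control but not all knockdown libraries reached the minimum, so their direction was not independent of the filter. Over all 34 regions, tested or not, the mean CPM was lower in 28, against 51.8% of all regions.

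No region of the 29 passed an adjusted p of 0.05 for H3K27ac in edgeR (0.0114% of all tested regions did), and the lowest adjusted p was 0.389. With limma-voom none of the 29 passed (0.301% of all tested regions did), and with DESeq2 none of the 26 it gave an adjusted p (1.06%). An unadjusted p under 0.05 was found in 2 of 29 (11.3% of all tested). Groups did not overlap in 5 of 29, all lower in knockdown, against 17.5% of all tested regions in either direction. The regions of the cluster share the same 6 libraries, so the count of lower regions is not 24 separate measurements. The median standard error was 0.35 (log2), so a change of the size of the median could not be resolved region by region.

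**Figure D3:**
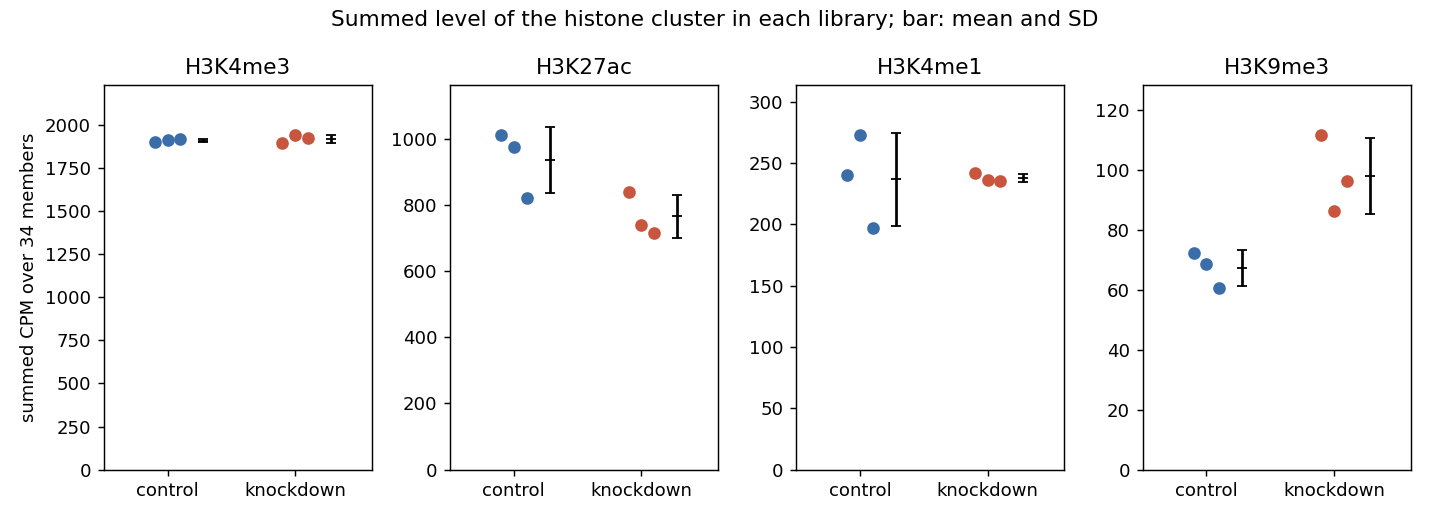
Summed CPM over the 34 regions in each library (points) for H3K4me3, H3K27ac, H3K4me1 and H3K9me3, on axes that start at 0, with the mean and SD of 3 libraries beside each group. H3K4me3 lies between 1895 and 1939 CPM in all 6 libraries, and the lowest control library for H3K27ac (822 CPM) is below the highest knockdown library (840 CPM).

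The lower H3K27ac values were seen in both windows. The first window had 659 ± 61.1 CPM in control and 566 ± 60.2 CPM in knockdown libraries (SD, n = 3 each), with 16 of 20 tested regions lower and a median log2 fold change of -0.26. The second window had 277 ± 40.5 and 199 ± 19.4 CPM, with 8 of 9 lower and a median of -0.56. The groups overlapped in the first window (592 to 712 CPM in control, 525 to 635 CPM in knockdown). They did not in the second (230 to 302 CPM in control, 178 to 215 CPM in knockdown). Between the windows, the 91 regions had 600 ± 19.5 and 577 ± 32.4 CPM, with 19 of 35 tested regions lower and a median of -0.05. Histone genes may lie in this stretch too, since H2BC11, H2AC11, H2BC12, H4C9 and H2AC12 come between H4C8 and H2BC13 in RefSeq order. Over all H3K4me3-carrying regions of the genome that were tested for H3K27ac, 11443 of 22894 were lower. Whether the windows differ from these other regions was not tested.

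At chr6:26122641-26126899, the region with the most H3K4me3, H3K27ac was 64.8, 69.4 and 56.2 CPM in control and 43.5, 49.2 and 39.5 CPM in knockdown libraries. The groups of 63.4 ± 6.71 and 44.1 ± 4.92 CPM (SD, n = 3 each) did not overlap (log2 fold change -0.53, SE 0.25, edgeR adjusted p = 0.436). At chr6:27781451-27783584 in the second window, the values were 30.7, 19.8 and 19.5 against 5.44, 14.8 and 14.5 CPM (log2 fold change -1.01, SE 0.44, edgeR adjusted p = 0.389). Nearby, chr6:27791141-27793365 had 23.1, 17.6 and 27.9 against 13.6, 11.4 and 14.8 CPM (log2 fold change -0.78, SE 0.39, edgeR adjusted p = 0.472). All 3 of these regions had every knockdown library below every control library.

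The region with the most H3K27ac, chr6:27803831-27808154, had 99.3, 81.9 and 79.7 CPM in control and 75.8, 75.8 and 51.2 CPM in knockdown (log2 fold change -0.36, edgeR adjusted p = 0.613), also without overlap. Its neighbours in that order varied more between libraries than between groups. chr6:26223093-26226571 had 61.3, 55.8 and 67.9 against 77.5, 50.4 and 46.5 CPM (log2 fold change -0.09). chr6:26020378-26023101 had 49.97, 33.0 and 67.5 against 39.8, 43.2 and 38.2 CPM (-0.31, and -0.0065 without control replicate 3). chr6:26025488-26028434 had 53.8, 47.0 and 40.4 against 63.6, 26.5 and 42.2 CPM (-0.09), and chr6:26054181-26057524 had 55.5, 57.6 and 36.0 against 42.2, 50.01 and 30.5 CPM (-0.28). In all 4 the groups overlapped, and at 2 of them the direction of the fit depended on single libraries. chr6:26223093-26226571 was above 0 without control replicate 3, knockdown replicate 2 or knockdown replicate 3 (0.069 at most), and chr6:26025488-26028434 without control replicate 1 or knockdown replicate 2 (0.20 at most).

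Of the 5 tested regions with a log2 fold change above 0, the 3 with the smallest p were all in the first window. chr6:26215278-26218740 had 37.6, 27.9 and 29.0 CPM in control and 41.8, 43.2 and 32.4 CPM in knockdown (log2 fold change 0.31, edgeR adjusted p = 0.759). chr6:26284223-26286904 had 26.5, 27.9 and 20.6 against 37.4, 22.7 and 31.4 CPM (0.29), and chr6:26171606-26173909 had 14.5, 14.3 and 10.6 against 16.7, 14.0 and 16.6 CPM (0.26). The groups overlapped in each.

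The 2 promoter marks were set side by side in the 29 regions tested for both. The H3K27ac log2 fold change was below that of H3K4me3 in 21 of 29. With H3K4me3 changes mostly near 0, this count largely repeats the 24 of 29 regions lower in H3K27ac. Its share over all regions was not computed. In 13 regions both were below 0, in 11 H3K27ac was below and H3K4me3 above 0, in 4 both were above, and in 1 the reverse. The marks come from separate libraries of different depth, and the difference between them was not tested.

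**Figure D4:**
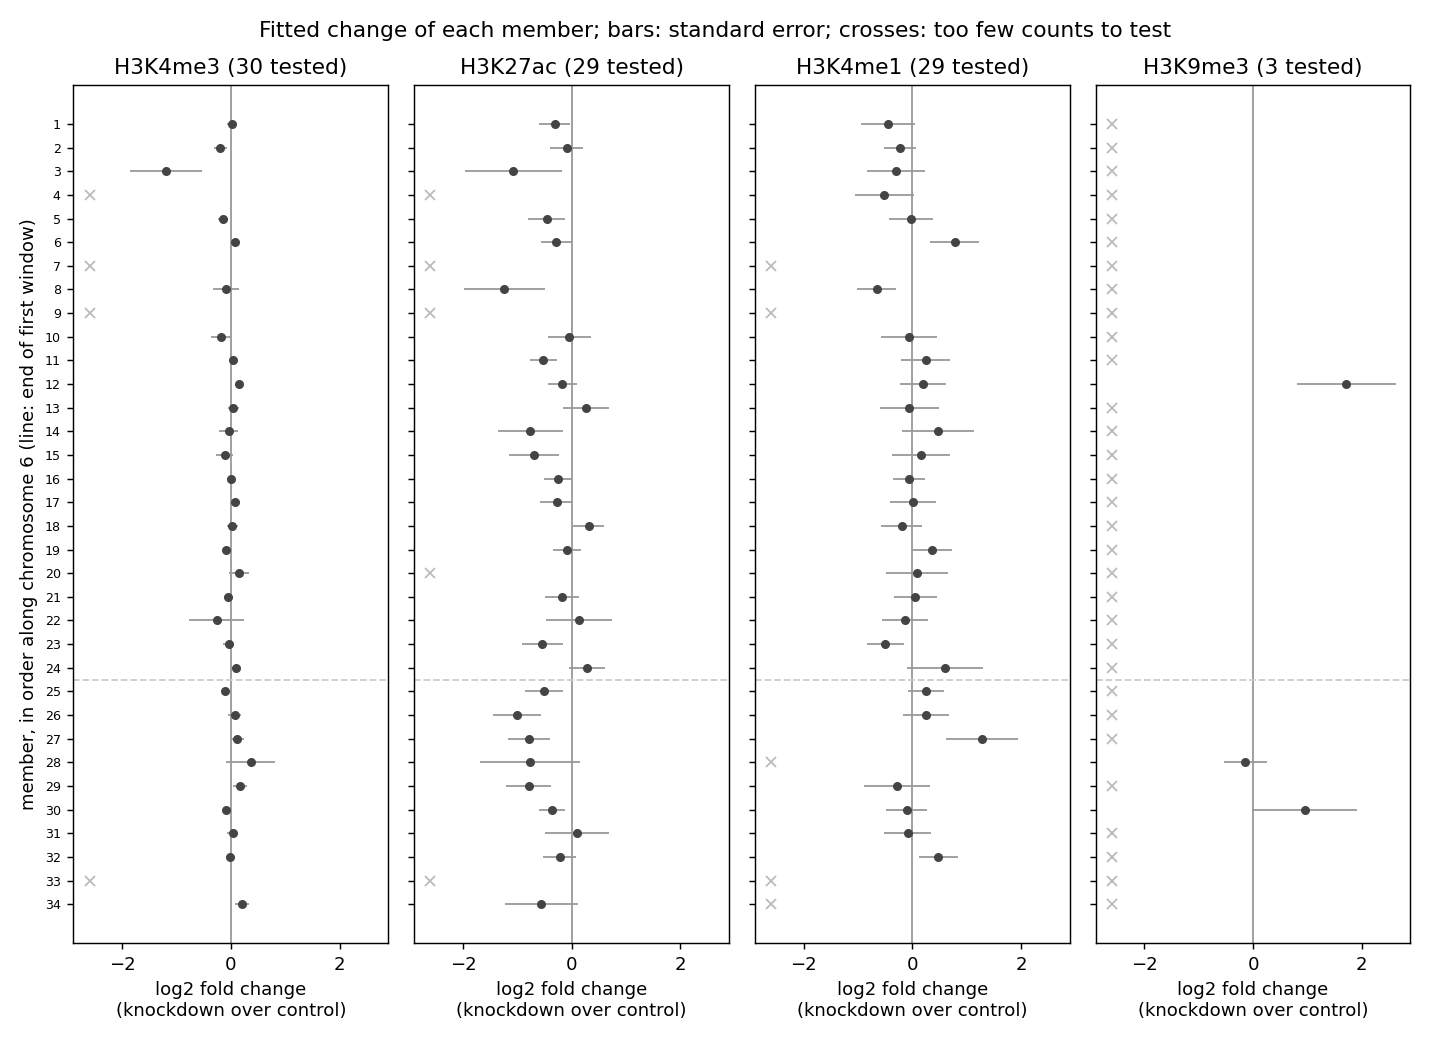
Fitted log2 fold change (knockdown over control) of each of the 34 regions, in order along chromosome 6, with standard errors as bars and crosses for regions with too few counts to test. H3K4me3 points sit near 0 with short bars, 24 of 29 H3K27ac points lie left of 0, and H3K9me3 has 3 tested regions.

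H3K4me1 was low in the histone windows, and its summed level was 240, 273 and 197 CPM in control and 242, 236 and 235 CPM in knockdown libraries. The means were 237 ± 38.0 and 238 ± 3.47 CPM (SD, n = 3 each), a ratio of 1.004, with all knockdown libraries inside the control range. Of 29 tested regions, 14 were higher and 15 lower, with a median log2 fold change of -0.03 in the cluster and -0.03 over all tested regions, of which 52.2% were lower. None had an adjusted p under 0.05 in edgeR, as was the case for all 85815 tested regions (0%), and none had an unadjusted p under 0.05 (10.5% of all). DESeq2 called none of the 29 (0.103% of all tested regions) and neither did limma-voom (0.0781%). Groups did not overlap in 4 of 29, 2 in each direction, against 15.6% of all tested regions.

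The highest H3K4me1 densities were at short regions. These were chr6:26257342-26258101 at 12.3 CPM per kb, chr6:26030082-26030559 at 10.1 and chr6:26029001-26029578 at 8.15. The first had 15.5, 8.79 and 4.94 CPM in control and 5.19, 10.01 and 11.4 CPM in knockdown libraries (log2 fold change -0.14), a spread within groups larger than the difference between them. The second had 4.96, 6.60 and 5.46 against 7.001, 2.93 and 2.08 CPM (-0.51, edgeR adjusted p = 0.766, from -1.18 without knockdown replicate 1 to -0.20 without knockdown replicate 3), and the third 3.38, 7.57 and 4.68 against 3.11, 3.91 and 5.60 CPM (-0.30). All 3 overlapped, and the fit turned above 0 at the first without replicate 1 of control (0.36) or knockdown (0.13) and at the last without control replicate 2 (0.073). The last 2 are weak H3K4me3 regions that lie between the stronger chr6:26025488-26028434 and chr6:26031076-26034732. For H3K4me1 at chr6:26030082-26030559, all 3 control but only 2 knockdown libraries reached the filter's minimum, so its direction was not independent of the filter.

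Among tested regions, the log2 fold change of H3K4me1 was farthest from 0 at chr6:27791141-27793365. There the control libraries had 1.35, 1.95 and 2.34 CPM and the knockdown libraries 5.70, 2.93 and 5.19 CPM, from 23 and 59 counts. This region passed the filter on low counts only through the knockdown libraries, since no control library reached its minimum, so a difference between groups was built in (log2 fold change 1.29, SE 0.66, edgeR adjusted p = 0.5002). On the lower side, chr6:26087445-26089246 had 14.0, 14.2 and 10.9 against 7.26, 10.3 and 7.26 CPM (-0.66, SE 0.36, edgeR adjusted p = 0.528) and chr6:26269986-26274655 had 14.2, 12.5 and 14.0 against 8.56, 9.77 and 10.4 CPM (-0.50, edgeR adjusted p = 0.622), both without overlap. chr6:26054181-26057524, at 6.76, 3.66 and 3.64 against 6.74, 8.79 and 8.71 CPM (0.78), and the widest region, chr6:27857573-27864029, at 10.6, 17.1 and 5.20 against 18.9, 13.7 and 13.5 CPM (0.48), overlapped between groups.

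H3K9me3 was near the floor in most of the cluster, and 3 of 34 regions had enough counts to test. One of the 2 regions that carried it was chr6:27794465-27795824, at 11.7 CPM per kb, which also carried H3K4me3 at 1.46 CPM per kb. Its H3K9me3 was 19.7, 12.9 and 17.8 CPM in control and 12.02, 12.1 and 21.2 CPM in knockdown libraries, which overlap (log2 fold change -0.14, SE 0.39, edgeR adjusted p = 0.948). The other, chr6:26080294-26080712 at 10.9 CPM per kb, had 1.44, 3.76 and 3.90 against 12.6, 2.42 and 3.39 CPM from 19 and 35 counts, so knockdown replicate 1 alone was high. That region had no H3K4me3 count in 6 libraries, where 3 counts would be 0.0406 CPM.

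The summed H3K9me3 level was 72.4, 68.7 and 60.6 CPM in control and 112, 86.3 and 96.2 CPM in knockdown libraries. The means were 67.2 ± 6.02 and 98.0 ± 12.8 CPM (SD, n = 3 each), a ratio of 1.458, and the groups did not overlap. This sum rests on 128 to 227 counts per library spread over 34 regions. The mean CPM was higher in 22 of the 34, tested or not, against 59.4% of all regions. Of the regions across the genome that carry H3K4me3, 2556 of 3483 tested for H3K9me3 had a log2 fold change above 0, with a median of 0.39 and a summed ratio of 1.1503. In the 91 regions between the windows the ratio was 0.848, from 1020 ± 59.2 CPM in control to 865 ± 71.2 CPM in knockdown libraries. The part that signal at H3K4me3-rich regions in these libraries has in the histone values was not tested.

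Of the 3 tested regions, none passed an adjusted p of 0.05 for H3K9me3 in edgeR (0.00982% of all 30565 tested regions did) or limma-voom (0.0196%), and DESeq2, which called 0.108% of all tested regions, gave no adjusted p for them. None had an unadjusted p under 0.05 in edgeR (8.31% of all), and 1 of the 3 did not overlap between groups (14.4% of all). That 1 was chr6:26155431-26160467, with 3.83, 1.07 and 0.866 CPM in control and 5.72, 6.79 and 6.78 CPM in knockdown libraries, from 12 and 40 counts (log2 fold change 1.71, SE 0.91, edgeR adjusted p = 0.625). It passed the filter on low counts only through the knockdown libraries. chr6:27803831-27808154 had 5.75, 1.07 and 0.866 against 5.72, 7.76 and 1.70 CPM, with overlap (0.95, edgeR adjusted p = 0.840). Its log2 fold change was 2.27 without control replicate 1 and 0.48 without knockdown replicate 2. A log2 fold change was below 0 in 1 of the 3 tested, and in 49.1% of all tested regions.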

How the data were processed

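CUT&Tag libraries of 4 marks in control and ZNF436 knockdown cells (3 each per mark) were deposited by the authors as raw counts per region, over the same regions in every file. Per the submitters' processing notes, Bowtie2 2.4.5, bedtools 2.30.0, deepTools 3.5.4 and hg19 were used; their roles, the making of the regions and any read filter are not given in the sources used here. Groups came from the labels. For each mark, R 4.3.3 and edgeR 4.0.16 (filterByExpr, TMM, quasi-likelihood test, Benjamini-Hochberg adjustment over all tested regions) were fitted on the 6 libraries, and the code was tested on simulated data. limma 3.58.1 (voom), DESeq2 1.42.0, other scalings and filters, a replicate term, each library left out and membership by midpoint were alternatives. Named regions were, per mark, the 3 higher and 3 lower with the smallest p and the 5 densest (3 for H3K4me1 and H3K9me3), plus those named beside them. The windows, lists and tests were chosen with earlier results of these data known. Planned gene lists and cell type markers were not used, since regions could not be placed in genes. Counting floors cover counting error only.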

Additional observations from a re-analysis of the deposited data

How the results depend on the processing

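No region of the histone windows with an adjusted p passed 0.05 in any alternative run. Genome-wide, those runs called 27 to 805 regions for H3K4me3 (17796 to 131762 tested) and 0 to 1412 for H3K27ac (24074 to 146767 tested). For H3K4me1 they called 0 to 2443 (41039 to 144761 tested), and for H3K9me3 2 to 33 (10425 to 147287 tested). At such low shares, no call among 34 regions does not set the windows apart. The lowest adjusted p over all alternatives was 0.261 for H3K4me3, 0.221 for H3K27ac, 0.274 for H3K4me1 and 0.523 for H3K9me3. With each library left out in turn, the H3K27ac median log2 fold change ranged from -0.47 to -0.21 and the summed ratio from 0.792 to 0.865. In these runs 23 to 25 regions were lower, with 30 to 32 tested in place of 29. The H3K4me3 ratio ranged from 1.005 to 1.012, the H3K4me1 ratio from 0.924 to 1.085 and the H3K9me3 ratio from 1.330 to 1.526. The H3K9me3 median changed from 0.95 to -0.06 under the stricter filter, which left 1 region. That filter left 9 H3K4me1 regions lower in place of 15, since fewer were tested. With the top 10% as the limit, 7 regions carried H3K27ac, 1 carried H3K4me1 and 0 carried H3K9me3, and with the control libraries alone 1 carried H3K9me3. Leaving out 1 library moved 22 of the 32 named values by over 1.5 times, and of 409 alternatives for them 8 turned the direction; the cause was not tested. Leaving out 1 library at a time, H3K4me1 at chr6:26257342-26258101 ranged from -0.45 to 0.36 (above 0 without replicate 1 of either group, 0.13 for knockdown), and at chr6:26029001-26029578 from -0.57 to 0.073 (highest without control replicate 2). H3K27ac at chr6:26025488-26028434 ranged from -0.42 to 0.20, with 0.037 when control replicate 1 and 0.20 when knockdown replicate 2 was left out. H3K27ac at chr6:26223093-26226571 ranged from -0.32 to 0.069, with 0.028 when control replicate 3, 0.034 when knockdown replicate 2 and 0.069 when knockdown replicate 3 was left out. Same-numbered libraries did not deviate together (correlations from -0.098 to 0.064, against -0.081 to 0.098 for other pairs). With 3 libraries per group, this cannot settle whether same-numbered libraries shared a culture or batch. A replicate block gave 0 calls in the cluster and median log2 fold changes of 0.01 for H3K4me3, -0.28 for H3K27ac, -0.02 for H3K4me1 and 1.12 for H3K9me3. Genome-wide, that run called 177 of 26773 tested regions for H3K4me3 and 102 of 61484 for H3K27ac. For H3K4me1 it called 94 of 85815, and for H3K9me3 6 of 30565. The histone windows held 128 to 227 H3K9me3 counts per library, which left 3 regions to test.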

Other observations

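Some regions had too few counts to test, and their values were singled out after they were seen. For H3K4me3, chr6:26030082-26030559 had 1.09, 0.802 and 1.203 CPM in the control libraries and 0.0933, 0.398 and 0.331 CPM in the knockdown libraries, from 38 and 10 counts. It is the neighbour of chr6:26029001-26029578, so 4 consecutive regions near the start of the first window had lower mean H3K4me3 in the knockdown libraries. For H3K9me3, chr6:27774384-27779278 had 2, 0 and 1 counts in the control libraries and 18, 6 and 12 in the knockdown libraries. The ratio of the scaled sums was 12.2, with an exact 95% interval of 3.85 to 61.8. That interval pools the 3 libraries of each group and covers counting error only. It may be too narrow, since all but 1 of these counts are even. This region had the most knockdown counts among those with 3 or fewer control counts, so a high ratio was built in by the choice. H3K4me3 in the same region came to 91.2 ± 3.68 CPM for control libraries against 84.6 ± 5.87 CPM for knockdown libraries (SD, n = 3 each), and these groups overlapped. chr6:26029001-26029578 had no H3K9me3 count in 6 libraries, where 3 counts would be 0.205 CPM.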
